A study of Mus musculus with 15 samples.

Results

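Collagen chain genes encode the alpha chains that wind around each other into collagen, the main protein of the extracellular matrix. A gene was taken as a member when its symbol in the array's annotation was Col, a number, the letter a and a number, and each was represented by its brightest probe set, judged by the mean of the 15 arrays. This gave 42 of the 18193 genes with a probe set of their own, covered by 82 probe sets, and 27 of the 42 had several. By structural class the members were 11 fibrillar chains, the 6 type IV chains of basement membranes, and 25 chains of other classes (9 fibril-associated, 5 beaded filament, 4 transmembrane, 3 network-forming, 2 multiplexin, 1 anchoring fibril and 1 unclassed). Col6a6, Col28a1 and Col21a1 were looked for and not analysed here.

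Fibrillar collagens (types I, II, III, V, XI, XXIV and XXVII here) form the fibrils of connective tissue, while type IV chains form the sheet-like network of basement membranes, on which mammary epithelium rests. Type VI chains assemble into beaded filaments between cells and fibrils, and the transmembrane chain of type XVII holds epithelial cells to the basement membrane. In a mammary gland or tumour, fibroblasts make most of the fibrillar collagen, whereas type IV chains come from several cell types, and chains are hydroxylated, folded, trimmed and cross-linked by dedicated enzymes before they are part of a fibre.

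The samples were mammospheres, floating spheres of cells grown in suspension for 7 days from dissociated primary mammary tumours and then treated for 24 h. All 15 came from FVB/N mice of the genotype WAPCre-DNbcatn;HGF, so the DMSO samples carry these alleles too, and the name holds a Cre recombinase under the WAP (whey acidic protein) promoter. The question was what Wnt and MET pathway inhibitors do to these spheres, alone or combined. The groups, 3 arrays each, were PHA, ICG and DMSO with the title code JAH (the first set), and PHA+ICG and DMSO with the title code JHO-5 (the second set). DMSO is the vehicle, and the labels spell out neither compound. As background, PHA is a prefix of a MET kinase inhibitor and ICG of a blocker of β-catenin-driven transcription. The labels do not say whether replicates came from separate cultures or mice, so p-values reflect only how far these arrays differ, and that difference may be technical.

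Promoter windows are shown for the chains on which the results turn: Col6a1, with the largest fold changes under each single compound, Col11a1, with the largest under both compounds, and the type IV pair Col4a1 and Col4a2. Each runs, 5′ to 3′ on the gene's strand, from 250 bases before to 50 bases after the start that the RefSeq promoter table uses for the gene. For Col11a1 and Col4a1 that start lies inside the gene, downstream of its outermost annotated start. Capitals mark matches to 5 short motifs on either strand. The TATA box was searched as TATAAA, which general initiation factors bind. The CCAAT box was searched as its own 5 letters. The GC box was searched as GGGCGG, the core that Sp1-type factors read. The AP-1 motif was searched as TGACTCA, bound by Fos and Jun proteins. The TCF/LEF motif was searched as CTTTGAT, bound by the DNA-binding partners of β-catenin.
Col6a1: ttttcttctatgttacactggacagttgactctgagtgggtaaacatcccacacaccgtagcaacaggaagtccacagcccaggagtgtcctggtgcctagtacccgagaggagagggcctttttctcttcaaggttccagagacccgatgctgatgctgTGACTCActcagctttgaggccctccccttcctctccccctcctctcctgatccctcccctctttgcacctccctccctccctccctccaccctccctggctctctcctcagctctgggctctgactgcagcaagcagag
Col11a1: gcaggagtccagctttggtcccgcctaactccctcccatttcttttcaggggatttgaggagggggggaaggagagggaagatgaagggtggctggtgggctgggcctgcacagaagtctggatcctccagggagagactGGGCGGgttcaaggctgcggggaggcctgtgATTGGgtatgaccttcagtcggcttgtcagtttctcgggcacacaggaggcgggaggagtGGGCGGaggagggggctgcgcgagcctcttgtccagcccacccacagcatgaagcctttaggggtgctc
Col4a1: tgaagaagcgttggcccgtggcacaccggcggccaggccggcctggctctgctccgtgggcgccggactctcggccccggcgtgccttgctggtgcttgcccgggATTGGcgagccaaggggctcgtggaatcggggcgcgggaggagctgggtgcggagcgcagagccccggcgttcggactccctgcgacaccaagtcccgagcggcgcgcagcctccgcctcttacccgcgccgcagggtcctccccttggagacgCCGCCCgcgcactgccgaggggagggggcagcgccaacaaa
Col4a2: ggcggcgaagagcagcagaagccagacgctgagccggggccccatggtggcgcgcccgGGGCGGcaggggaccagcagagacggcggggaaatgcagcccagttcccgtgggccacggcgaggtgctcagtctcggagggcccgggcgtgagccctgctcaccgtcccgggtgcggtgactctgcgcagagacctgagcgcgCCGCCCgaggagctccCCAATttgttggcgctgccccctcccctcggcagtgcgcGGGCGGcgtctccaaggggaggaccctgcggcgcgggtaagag
On GRCm38.p6 these windows are chr10:76725995-76726294 (minus strand) for Col6a1, chr3:114030290-114030589 (plus strand) for Col11a1, chr8:11312777-11313076 (minus strand) for Col4a1 and chr8:11312555-11312854 (plus strand) for Col4a2. The Col4a1 and Col4a2 windows lie head to head and, with the starts used, share 78 bases. Their GC contents were 74.0% and 73.67%, against a median of 52.67% over the 32851 windows of all genes. The Col6a1 window held 1 AP-1 motif and none of the other letters searched, whereas that of Col11a1 held 1 CCAAT box and 2 GC boxes. Over the 36 windows found for 33 of the members, 22 held a GC box (35.658% of all windows), 13 a CCAAT box (37.408%), 5 a TATA box (13.616%), 1 an AP-1 motif (5.202%) and 1 a TCF/LEF motif (3.729%). These are matches of letters, not binding sites.

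The spheres held epithelial and stromal RNA. On the 15 arrays the log2 signals of the luminal keratin Krt8 lay between 8.04 and 10.51 and those of the epithelial adhesion gene Epcam between 8.36 and 10.4, while the fibroblast receptor Pdgfrb lay between 8.81 and 12.5 and the endothelial marker Pecam1 between 3.85 and 4.41. The leukocyte marker Ptprc separated the arrays: it was 9.20 on PHA+ICG replicate 1 and 10.04 on DMSO replicate 1 of the second set, against 5.54 to 6.79 on the other 4 arrays of that set, and 10.71 to 11.002 throughout the first set. The 2 replicate 1 arrays of the second set thus stand apart, and results of that set are given with and without them. The median SD within groups over all genes was 0.236 in the second set and 0.107 in the first, 2.22 times apart. Over the collagen genes it was higher, at 0.291 and 0.171. In a simulation with the real spread of each gene, the changed genes were drawn from all genes. A log2 change of 1 was called in 96.8% of them for PHA, 96.4% for ICG and 27.4% for PHA+ICG. A miss in the second set thus says less than one in the first. The rates for the collagen genes, which spread more, were not measured.

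The fibrillar class had its lowest mean signal in the ICG spheres. Its mean log2 signal over the 11 chains lay between 8.33 and 8.37 on the PHA arrays and between 7.36 and 7.79 on the ICG arrays, against 8.30 to 8.83 on the DMSO arrays of the same set. In the second set it lay between 8.91 and 9.06 with PHA+ICG, against 9.73 to 9.96 with DMSO. The ICG arrays were below every DMSO array of their set, as were the PHA+ICG arrays below theirs, whereas the PHA arrays lay within the DMSO range. The 25 chains of other classes averaged 6.47 to 6.52 with PHA and 6.13 to 6.30 with ICG, against 6.66 to 6.80 with DMSO, and 6.81 to 6.96 with PHA+ICG, against 7.24 to 7.27 with its DMSO. In that class the arrays of each treatment lay below every DMSO array of their set. The 6 type IV chains averaged 6.91 to 6.96 with PHA and 6.60 to 6.79 with ICG, against 6.79 to 6.87 with DMSO, and 7.64 to 7.93 with PHA+ICG, against 7.97 to 8.17 with its DMSO.

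**Figure D1:**
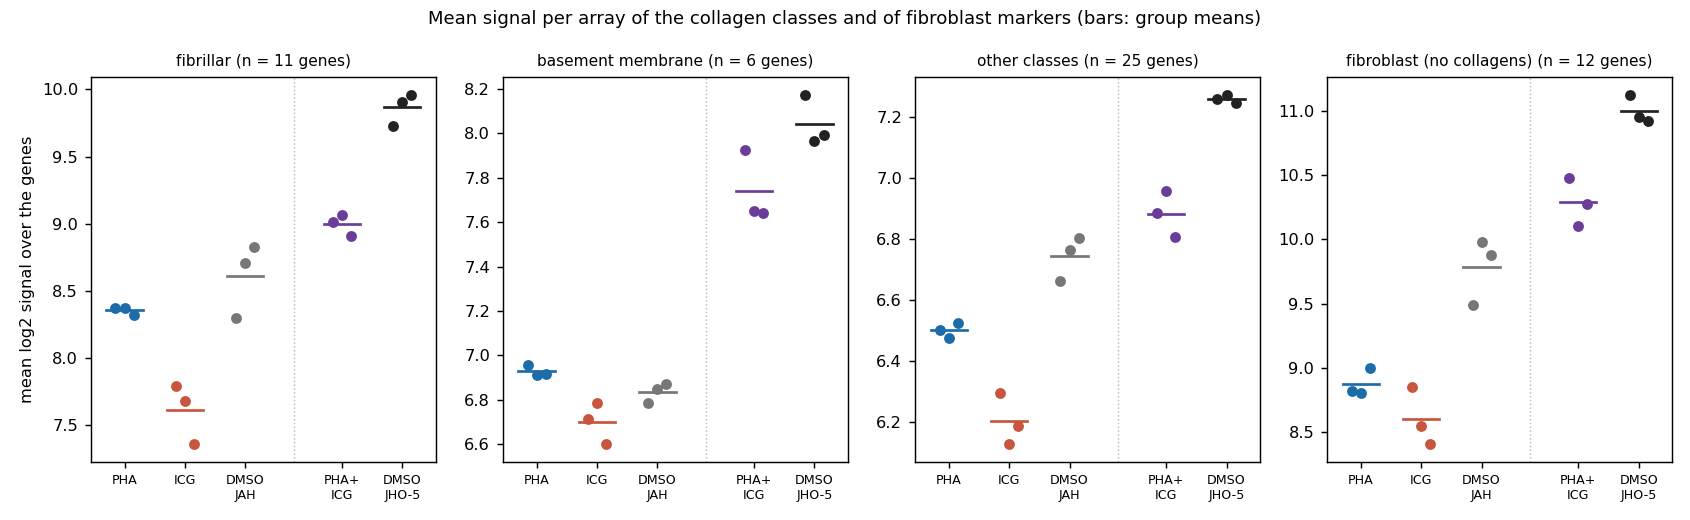
Mean log2 signal per array (y axis) over the fibrillar, basement membrane and other collagen genes and over 12 fibroblast markers that are not collagens, by group (x axis, 3 points a group, bars at the group means, first set left of the dotted line). The y axes differ in range; the ICG points lie below all first-set DMSO points in the fibrillar panel, and in the fibroblast panel all second-set points (10.11 and above) lie above all first-set points.

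PHA lowered 6 of the 42 collagen genes and raised none, where 7.07% of all genes tested fell, 3.14% rose and 10.2% changed at an adjusted p under 0.05. The 6 were the type VI chains Col6a1, Col6a2 and Col6a3, the fibrillar chain Col3a1, the hemidesmosome chain Col17a1 and the fibril-associated chain Col12a1. The median log2 fold change of the members was −0.05, against 0.02 over all genes. All 3 PHA arrays lay below all 3 DMSO arrays for 12 members and above them for 3, as they did for 16.2% and 15.4% of all genes (31.6% in all). At an unadjusted limma p under 0.05 stood 12 members and 25.5% of all genes. On the same arrays 9 of 12 fibroblast markers that are not collagens fell, and their part in the result was not tested.

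Col6a1, a core chain of the type VI filament, had log2 signals of 7.74, 7.58 and 7.85 with PHA, against 8.63, 9.64 and 9.67 with DMSO. Col6a2, its partner in the same helix, had 8.46, 8.31 and 8.44 with PHA, against 8.99, 9.92 and 9.96 with DMSO. Col6a3, the longest chain of that trio, had 11.29, 11.20 and 11.23 with PHA, against 11.71, 12.38 and 12.36 with DMSO. In each case the PHA arrays lay together below the lowest DMSO array, which was replicate 1. The log2 fold changes were −1.59 ± 0.25 for Col6a1 (SE, adjusted p = 0.00378, a 3.01-fold difference), −1.22 ± 0.24 for Col6a2 (0.0104) and −0.91 ± 0.23 for Col6a3 (0.0336). The call of Col6a3 was lost in 5 of the 6 fits that left out 1 array.

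Col3a1, the chain of type III collagen, had 9.54, 9.35 and 9.19 with PHA, against 10.26, 11.11 and 11.33 with DMSO. Col17a1, which anchors basal epithelial cells, had 5.62, 5.21 and 5.28 with PHA, against 6.39, 6.42 and 6.19 with DMSO. The groups did not overlap for either gene, and the fold changes were −1.54 ± 0.32 for Col3a1 (adjusted p = 0.0133) and −0.97 ± 0.14 for Col17a1 (0.00202) on the log2 scale. Col3a1 was no longer called without DMSO replicate 2 or without DMSO replicate 3. Col12a1, which decorates the surface of fibrils, had the smallest adjusted p under PHA, with −0.65 ± 0.06 (0.00023) for its brightest probe set, while its other 3 probe sets were not called.

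The type I chains did not pass the test with PHA. Col1a1 had 8.46, 8.35 and 8.20 with PHA, against 8.31, 9.21 and 9.49 with DMSO, so that DMSO replicate 1 lay among the PHA arrays, and its log2 fold change was −0.67 ± 0.27 (adjusted p = 0.155). Without that DMSO array it was called, at −1.01 ± 0.19 (0.0109), as was Col27a1 at −0.48 ± 0.10 (0.0173). Col1a2, the partner chain, had 12.28, 12.28 and 12.17 with PHA, against 12.04, 12.84 and 12.98 with DMSO, with a fold change of −0.37 ± 0.31 (0.506). The type IV genes stayed close to DMSO: Col4a1 differed by 0.01 ± 0.10 and Col4a2 by −0.03 ± 0.10 on the log2 scale.

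ICG lowered 19 of the 42 collagen genes and raised 1, where 15% of all genes fell, 11.9% rose and 26.9% changed. The fallers were 8 of the 11 fibrillar chains, Col4a1 and Col4a2 of the 6 type IV chains, the 3 main type VI chains, and Col7a1, Col12a1, Col16a1, Col17a1, Col18a1 and Col23a1. The median log2 fold change was −0.98 over the fibrillar chains, −0.08 over the type IV chains and −0.11 over all 42, against 0.03 over all genes. All 3 ICG arrays lay below all 3 DMSO arrays for 20 members and above them for 2, as for 20.4% and 20.2% of all genes (40.6% in all). Of the 18 members whose mean signal lay above that of the median gene, 17 fell, and of the 24 below it 3 changed. Calls were more frequent among such brighter genes in general. A fit that left out all genes below the median signal called 51.1% of the genes it kept. On the same arrays 10 of the 12 fibroblast markers fell, and their part was not tested. In such bulk RNA, fewer cells of a type and less RNA per cell cannot be told apart.

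Among the type I and III chains, Col1a1 and Col3a1 had larger changes than Col1a2 by their brightest probe sets. In a fit across all probe sets, the other probe sets of Col1a2 gave −1.81 and −1.06 with ICG, and both were called. Col1a1 had 7.12, 6.50 and 6.47 with ICG, against 8.31, 9.21 and 9.49 with DMSO. Col1a2 had 11.84, 11.85 and 10.69 with ICG, against 12.04, 12.84 and 12.98 with DMSO. Col3a1 had 8.95, 8.54 and 7.74 with ICG, against 10.26, 11.11 and 11.33 with DMSO. All ICG arrays lay below all DMSO arrays for the 3 genes, but for Col1a2 the gap between ICG replicates 1 and 2 and DMSO replicate 1 was small. The log2 fold changes were −2.31 ± 0.27 for Col1a1 (adjusted p = 0.000208), −2.49 ± 0.32 for Col3a1 (0.000323) and −1.16 ± 0.31 for Col1a2 (0.0203), and the last was not called without DMSO replicate 2 or 3.

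The other fibrillar chains that fell have smaller shares in fibrils. Col5a2, the type V chain that joins type I fibrils, had 11.59, 11.42 and 11.15 with ICG, against 11.99, 12.33 and 12.37 with DMSO, with a log2 fold change of −0.85 ± 0.13 (adjusted p = 0.000858). Col5a1 fell by 0.98 ± 0.18 (0.00326) and Col5a3 by 1.05 ± 0.26 (0.0131). Col24a1 and Col27a1, fibrillar chains of a separate branch of the family, fell by 1.56 ± 0.10 (1.07e-05) and 0.97 ± 0.12 (0.000261). The call of Col5a3 was lost without DMSO replicate 3. The riser was Col11a2, a type XI chain at a low signal, with 4.85, 4.84 and 4.85 with ICG against 4.71, 4.58 and 4.65 with DMSO. Its fold change of 0.20 ± 0.06 (0.0317) was lost in 5 of the 6 fits that left out 1 array.

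Of the 5 type VI chains measured, Col6a1, Col6a2 and Col6a3 fell with ICG by more than 2 on the log2 scale, while Col6a4 and Col6a5 were not called. Col6a1 had 6.99, 6.42 and 6.56 with ICG, against 8.63, 9.64 and 9.67 with DMSO, the largest change of any member at −2.66 ± 0.25 (adjusted p = 6.80e-05, 6.31-fold). Col6a2 had 7.90, 7.46 and 7.33 with ICG, against 8.99, 9.92 and 9.96 with DMSO. Col6a3 had 10.31, 9.89 and 9.36 with ICG, against 11.71, 12.38 and 12.36 with DMSO. The groups were far apart for each, with changes of −2.06 ± 0.24 for Col6a2 (0.000186) and −2.30 ± 0.23 for Col6a3 (8.84e-05), and no fit that left out 1 array lost any of the 3 calls.

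Chains of the basement membrane zone fell as well. Col4a1, a chain of the common type IV network, had 12.22, 12.23 and 11.95 with ICG, against 12.59, 12.87 and 12.92 with DMSO, and fell by 0.66 ± 0.10 (adjusted p = 0.00104). Col4a2, transcribed from the shared promoter in the opposite direction, had 11.18, 11.12 and 10.92 with ICG, against 11.25, 11.57 and 11.54 with DMSO, and fell by 0.38 ± 0.10 (0.0150). The groups did not overlap for either gene, though Col4a2 was not called without DMSO replicate 2, DMSO replicate 3 or ICG replicate 3. Col18a1, whose product carries heparan sulphate in basement membranes, had 11.48, 11.43 and 10.99 with ICG, against 11.70, 11.95 and 12.04 with DMSO, and fell by 0.60 ± 0.13 (0.00837). With PHA it had 11.60, 11.58 and 11.39 and its change of −0.37 ± 0.13 was not called. The falls of Col4a1 and Col18a1 with ICG are those of their brightest probe sets. In a fit across all probe sets, the other probe set of Col4a1 gave −0.23 and that of Col18a1 −0.32 with ICG, and neither was called. With the spread pooled over both sets, Col4a1, Col4a2 and Col18a1 were not called with ICG.

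Col7a1, which forms the anchoring fibrils under epithelia, had 7.73, 7.43 and 7.57 with ICG, against 8.64, 8.93 and 8.91 with DMSO, a fall of 1.25 ± 0.10 (adjusted p = 2.71e-05). With PHA it had 8.59, 8.68 and 8.52, a change of −0.23 ± 0.10 that was not called. Col17a1 had 5.41, 5.72 and 5.89 with ICG and fell by 0.66 ± 0.14 (0.00555). Col17a1 was thus called lower with either compound, Col7a1 with ICG alone. Neither call of Col17a1 held with the spread pooled over both sets. Col23a1, a transmembrane collagen, had 7.48, 6.76 and 6.76 with ICG, against 8.87, 9.39 and 9.15 with DMSO, and fell by 2.14 ± 0.22 (9.43e-05). With PHA it had 8.31, 8.39 and 8.87, and its change of −0.61 ± 0.22 was not called (0.109). In a fit across all probe sets, another probe set of Col23a1 was called with PHA at −0.65, and a further one, at −0.62, was not. Col12a1 and Col16a1, both fibril-associated, fell with ICG by 1.65 ± 0.06 (7.48e-07) and 0.99 ± 0.09 (6.71e-05).

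**Figure D2:**
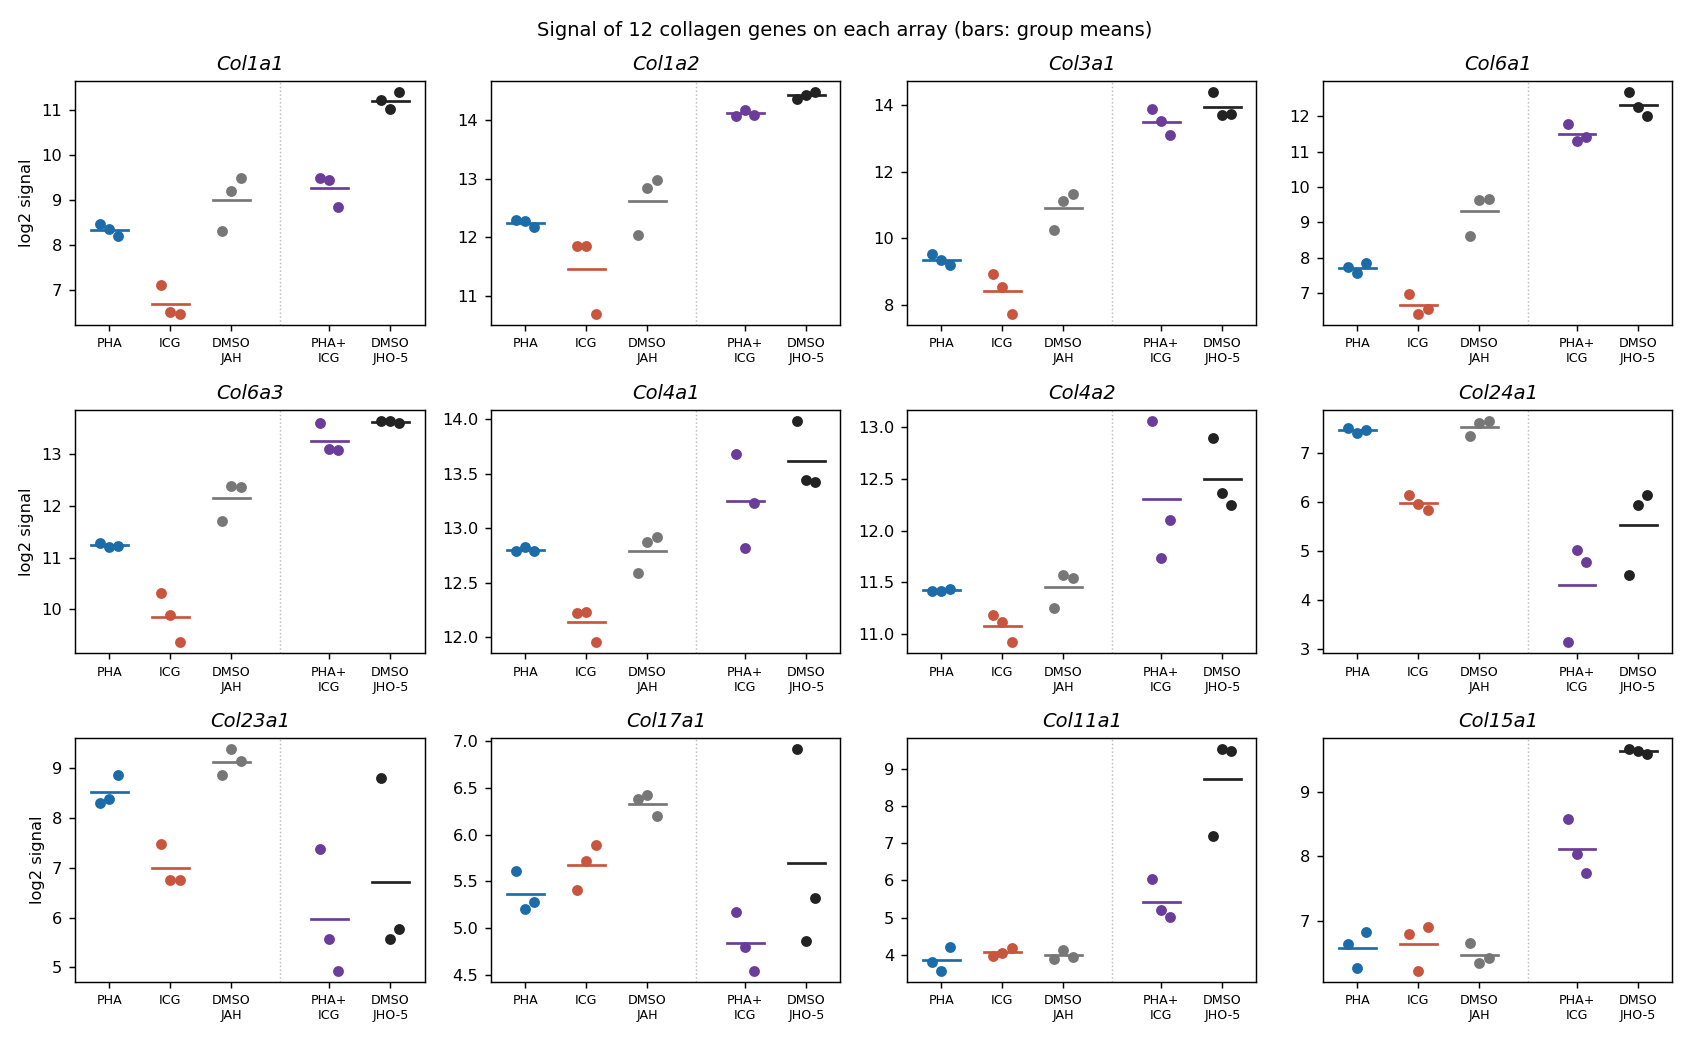
Log2 signal on each of the 15 arrays (y axis) for selected collagen genes, by group (x axis, 3 points a group, bars at the group means). In the Col6a1 panel the PHA points lie between 7.58 and 7.85 and the ICG points between 6.42 and 6.99, below the first-set DMSO points, and in the Col11a1 panel the first-set points lie between 3.58 and 4.21 while the second-set DMSO points lie between 7.19 and 9.53.

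PHA and ICG were each set against the same 3 DMSO arrays, so their fold changes are not independent, and the compounds were also compared directly. In that comparison 16 of the 42 members were called, all 16 higher with PHA, where 13.7% of all genes were higher with PHA, 13.4% lower and 27.1% changed. They were 7 fibrillar chains, Col4a1 and Col4a2, and 7 of the other classes. Col1a1 was 1.64 ± 0.27 higher on the log2 scale with PHA than with ICG (adjusted p = 0.00138), Col24a1 1.49 ± 0.10 (9.49e-06), Col6a3 1.38 ± 0.23 (0.00145), Col5a1 1.29 ± 0.18 (0.000593) and Col7a1 1.02 ± 0.10 (6.62e-05). Col4a1 was 0.67 ± 0.10 higher with PHA (0.000884). Col3a1, at 0.95 ± 0.32 (0.0490), lost its call in 5 of the 6 fits that left out 1 array. Col4a2 and Col6a2 lost theirs in 4 of the 6 and Col5a3 in 3.

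With PHA+ICG, 4 of the 42 members fell and none rose, where 1.54% of all genes fell, 0.478% rose and 2.02% changed. These were the fibrillar chains Col1a1, Col5a2 and Col11a1 and the multiplexin chain Col15a1. The members' median log2 fold change was −0.35, against 0.00 over all genes, and −0.70 over the fibrillar chains. Of the 12 fibroblast markers 2 fell (8 had an unadjusted limma p under 0.05), a part not tested. Among the members 14 had an unadjusted limma p under 0.05, as did 13.3% of all genes. The PHA+ICG arrays lay below all their DMSO arrays for 14 members and above them for 2, as for 11% and 7.33% of all genes (18.3% in all).

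Col11a1, a type XI chain found in thin fibrils, had 6.04, 5.22 and 5.02 with PHA+ICG, against 7.19, 9.53 and 9.46 with DMSO, a log2 fold change of −3.30 ± 0.60 (adjusted p = 0.0352, 9.84-fold). Col1a1 had 9.49, 9.44 and 8.85 with PHA+ICG, against 11.22, 11.01 and 11.39 with DMSO, a change of −1.95 ± 0.21 (0.00745). The groups did not overlap for either, and the highest PHA+ICG value of Col11a1 and its lowest DMSO value both came from replicate 1. Col15a1, a chain of the zone just outside basement membranes, had 8.58, 8.03 and 7.74 with PHA+ICG, against 9.66, 9.63 and 9.59 with DMSO, a change of −1.51 ± 0.22 (0.0169). Col5a2 had 12.12, 12.03 and 11.99 with PHA+ICG, against 12.78, 12.72 and 12.79 with DMSO, a change of −0.72 ± 0.14 (0.0483).

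These calls differ in how much they rest on single arrays. The Col1a1 call held in all 6 fits that left out 1 array, that of Col5a2 in none. Those of Col11a1 and Col15a1 were lost without DMSO replicate 2, DMSO replicate 3, PHA+ICG replicate 2 or PHA+ICG replicate 3, each of which leaves 1 member called. Same-numbered arrays of the second set were taken as pairs, which for replicates 2 and 3 is an assumption. With replicate number as a block 11 members fell, where 7.93% of all genes changed. They were the 4 above and Col4a5, Col5a1, Col6a1, Col8a1, Col12a1, Col24a1 and Col27a1. In that fit Col8a1 changed by −1.74 ± 0.17 (adjusted p = 0.000276), Col12a1 by −1.74 ± 0.19 (0.000495), Col24a1 by −1.22 ± 0.17 (0.00174) and Col6a1 by −0.81 ± 0.16 (0.0129).

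Without the replicate 1 arrays of both groups 8 members fell, where 4.87% of all genes changed. Col11a1 then changed by −4.38 ± 0.19 (adjusted p = 6.64e-05), Col1a1 by −2.06, Col15a1 by −1.73 and Col8a1 by −1.74 on the log2 scale, and Col4a5, Col7a1, Col12a1 and Col24a1 were also called. Col8a1, a network-forming chain, had 6.23, 7.48 and 6.96 with PHA+ICG, against 7.95, 8.93 and 9.00 with DMSO, so that replicate 1 was the lowest array of both groups. Col3a1 and Col1a2, both called with ICG, were not called here. Col3a1 had 13.87, 13.51 and 13.08 with PHA+ICG, against 14.38, 13.69 and 13.72 with DMSO, a log2 change of −0.44 ± 0.26. Col1a2 had 14.07, 14.18 and 14.09 with PHA+ICG, against 14.36, 14.43 and 14.48 with DMSO, groups that did not overlap, and changed by −0.31 ± 0.14.

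The type VI and type IV chains were not called with PHA+ICG without the block. Col6a1 had 11.78, 11.31 and 11.42 with PHA+ICG, against 12.68, 12.25 and 12.002 with DMSO, a change of −0.81 ± 0.22 (adjusted p = 0.126). Col6a2 differed by −0.55 ± 0.24 and Col6a3 by −0.37 ± 0.18. Col4a1 had 13.69, 12.82 and 13.23 with PHA+ICG, against 13.99, 13.44 and 13.43 with DMSO, and Col4a2 had 13.07, 11.74 and 12.10 with PHA+ICG, against 12.90, 12.36 and 12.25 with DMSO. For these type IV genes the groups overlapped, with changes of −0.37 ± 0.26 and −0.20 ± 0.34. Col7a1 had 7.54, 7.70 and 7.60 with PHA+ICG, against 7.64, 8.75 and 8.55 with DMSO (−0.70 ± 0.28). Col17a1 had 5.17, 4.80 and 4.54 with PHA+ICG, against 6.92, 4.86 and 5.32 with DMSO (−0.86 ± 0.47). Neither of these epithelial chains was called. Col18a1 had 11.82, 11.25 and 11.21 with PHA+ICG, against 11.59, 10.99 and 11.13 with DMSO, with overlapping groups (0.19 ± 0.23).

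**Figure D3:**
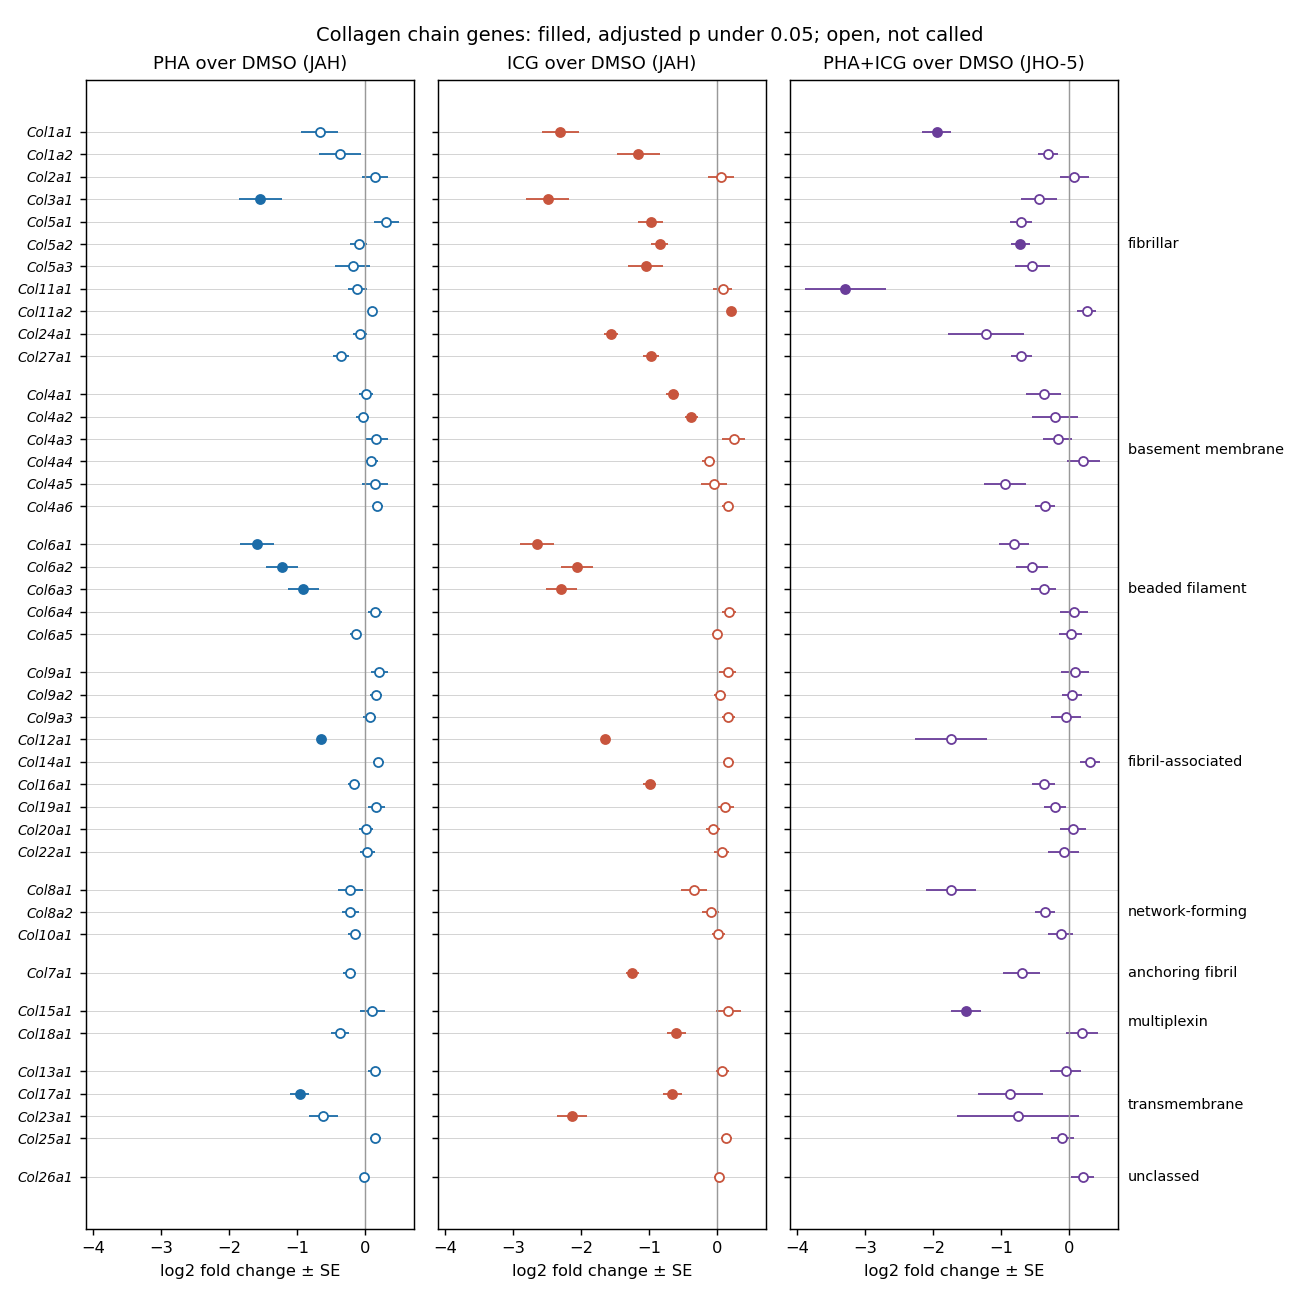
Log2 fold change ± SE (x axis, bars) of the 42 collagen genes (y axis, by class) for each single compound over the first-set DMSO and for PHA+ICG over the second-set DMSO. Filled points passed an adjusted p of 0.05: 6 for PHA, 20 for ICG and 4 for the combination.

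The effect of the combination was set against each single effect, each relative to the DMSO of its own set. The combined effect minus the PHA effect was called for 1 member, Col11a1, at −3.18 ± 0.55 (adjusted p = 0.00606), where 2.74% of all genes differed (1.08% upwards and 1.66% downwards). The combined effect minus the ICG effect was also called for Col11a1 only, at −3.38 ± 0.55 (0.0129), where 0.385% of all genes differed (0.121% upwards and 0.264% downwards). This second call was lost in 4 of the 12 fits that left out 1 array, those without replicate 2 or 3 of a second-set group. The call for the difference from the PHA effect was lost in 0 of 12. Without the replicate 1 arrays the differences were −4.26 ± 0.35 and −4.46 ± 0.35. Col11a1 lay below the first quartile of all probe sets on all 9 arrays of the first set, at 3.82, 3.58 and 4.21 with PHA and 3.97, 4.04 and 4.18 with ICG, against 3.90, 4.13 and 3.93 with DMSO. The gene was thus near the bottom of the scale in the first set, in DMSO as in treated spheres.

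With the block, the combined effect differed from the PHA effect for 4 members (Col11a1, Col12a1, Col15a1 and Col24a1) and for 2.84% of all genes. It differed from the ICG effect for 2 members (Col11a1 and Col15a1) and for 0.473% of all genes. That block also covered the first set, where same-numbered arrays were not taken as pairs. PHA+ICG was only in the second set, so combination and set cannot be told apart in these differences. Col6a1, Col6a2 and Col6a3 fell with ICG and were not called with PHA+ICG in the unblocked fit. The first and last of them showed differences of 1.85 ± 0.56 for Col6a1 (adjusted p = 0.265) and 1.92 ± 0.50 for Col6a3 (0.165) on the log2 scale. These did not pass. Without the first-set DMSO replicate 1 they were called, at 2.19 ± 0.33 (0.00911) for Col6a1, 1.83 ± 0.33 (0.0267) for Col6a2 and 2.15 ± 0.43 (0.0427) for Col6a3. Without ICG replicate 1 Col6a3 was called as well, and without ICG replicate 2 Col15a1 was.

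The DMSO arrays of the second set held more collagen RNA signal than those of the first. Of the 42 members 16 were higher and 2 lower, where 11.8% of all genes were higher, 11.8% lower and 23.5% differed. The second-set DMSO arrays lay above all those of the first set for 24 members and below them for 3, as for 23.7% and 20.2% of all genes (43.9% in all). The largest differences were 4.74 ± 0.39 for Col11a1 (adjusted p = 3.83e-07), 3.98 ± 0.33 for Col4a5 (4.10e-07), 3.15 ± 0.30 for Col15a1 (1.60e-06), 3.03 ± 0.49 for Col3a1 (0.000289), 3.03 ± 0.38 for Col6a2 (2.31e-05) and 3.00 ± 0.40 for Col6a1 (4.14e-05). Col4a5, a type IV chain of particular basement membranes, had 8.99, 8.09 and 8.66 in the second set, against 4.24, 5.10 and 4.45 in the first. Col23a1 was lower at −2.42 ± 0.60 (0.00743), with 8.81, 5.57 and 5.77 in the second set, against 8.87, 9.39 and 9.15 in the first, and Col24a1 was lower at −2.003 ± 0.35 (0.000489). Replicate 1 of the second set was thus at the first-set level for Col23a1, and without the replicate 1 arrays the difference was −3.47 ± 0.38. On the second-set DMSO arrays 6 of 12 fibroblast markers were higher and 2 lower, 7 of 11 leukocyte markers were lower, and 5 of 9 luminal markers were higher. Their part was not tested. Set and everything else that differs between the sets, the normalization included, cannot be told apart.

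For 20 of the 42 members the unblocked fits made no call with PHA, ICG or PHA+ICG: Col2a1, Col4a3, Col4a4, Col4a5, Col4a6, Col6a4, Col6a5, Col8a1, Col8a2, Col9a1, Col9a2, Col9a3, Col10a1, Col13a1, Col14a1, Col19a1, Col20a1, Col22a1, Col25a1 and Col26a1. Of these Col4a5 and Col8a1 were called with PHA+ICG in the blocked fit and without the replicate 1 arrays, as above, and Col14a1 was called higher with the spread pooled over both sets. For the brightest probe sets the PHA and ICG changes of the 20 were at most 0.345 in size on the log2 scale, and other probe sets of 3 of them were called. They include the cartilage chains of types II, IX and X and the kidney and sensory-organ chains Col4a3 and Col4a4, and no detection calls were used, so a low value says nothing of presence or absence. All 20 had a mean signal below that of the median gene.

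Several probe sets of 1 gene did not always move alike. In a fit across all probe sets, a second probe set of Col1a2 fell with PHA+ICG by 1.36 on the log2 scale and was called, against −0.31 for the brightest one. For Col3a1 the second probe set gave −1.85 with PHA+ICG, not called, against −0.44. With ICG the second probe set of Col5a3 gave −0.04, against the called −1.05, and a second one of Col25a1 gave a called −1.25, against 0.14 (−0.74 with PHA, called). A second probe set of Col8a1 was called at −0.75 with PHA and at −0.76 with ICG. A second one of Col4a4 was called at 0.40 with ICG. The 3 other probe sets of Col12a1 gave −0.06, 0.07 and 0.13 with PHA, against the called −0.65 of the brightest. The probe sets of Col1a1, Col3a1 and Col6a2 were called alike with ICG, and both of Col11a1 fell with PHA+ICG, the other by 3.57.

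**Figure D4:**
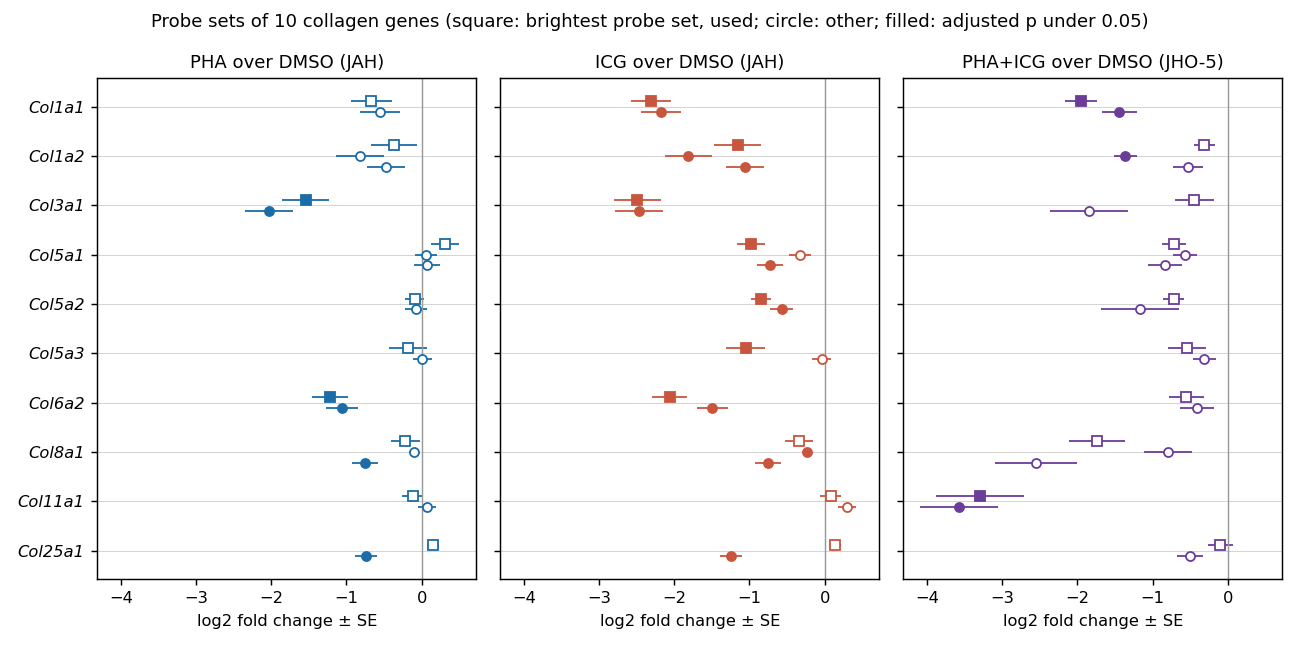
Log2 fold change ± SE (x axis) of every probe set of 10 collagen genes (y axis) in the 3 treatment comparisons; squares are the brightest probe set, circles the others, and filled marks passed an adjusted p of 0.05. For Col1a2 with PHA+ICG the square lies at −0.31 and the filled circle at −1.36.

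Genes that act on collagen chains were followed in lists. Beside the counts of each list stand the shares over all genes. With PHA 3.14% rose and 7.07% fell, with ICG 11.9% rose and 15% fell, and with PHA+ICG 0.478% rose and 1.54% fell. Counts near these shares say nothing particular of a list. Of 21 measured genes for hydroxylation, folding and export, 2 rose and 0 fell with PHA, 2 rose and 8 fell with ICG, and 2 fell with PHA+ICG. Fkbp14, a prolyl isomerase of the endoplasmic reticulum, fell by 1.65 ± 0.10 with ICG and by 1.99 ± 0.23 with PHA+ICG, and Sec23a, a coat protein for procollagen export, fell by 1.16 ± 0.09 and by 1.34 ± 0.16. The prolyl hydroxylase subunit P4ha2 went the other way with ICG, at 0.58 ± 0.06, as did the collagen chaperone Serpinh1 at 0.34 ± 0.08 (adjusted p = 0.0113). The lysyl hydroxylase Plod2 rose with PHA by 0.70 ± 0.15. P4ha1 was called in none of the 3 comparisons, with 0.08, −0.00 and −0.45.

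Of 10 genes for procollagen trimming and cross-linking, 4 fell under PHA, 7 under ICG and 2 under the combination, and none rose. The cross-linking oxidase Loxl3 fell in all 3, by 0.87 ± 0.15 (PHA), by 1.41 ± 0.15 (ICG) and by 1.43 ± 0.21 (PHA+ICG) on the log2 scale. Lox, of the same family, fell by 0.66 ± 0.17 with ICG (adjusted p = 0.0173) and by 0.86 ± 0.17 with PHA+ICG (0.0444), and its 0.09 ± 0.17 with PHA was not called. Loxl1 fell by 1.43 ± 0.18 with ICG, as did Pcolce, an enhancer of procollagen C-proteinase, by 1.27 ± 0.13. Pcolce2, its relative, fell by 1.09 ± 0.12 with PHA.

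Of 12 fibril-associated proteoglycans and glycoproteins, 2 fell under PHA, 4 under ICG and 0 under the combination (3 at an unadjusted limma p under 0.05). The collagen-binding protein Sparc fell by 1.68 ± 0.23 and the proteoglycan Lum by 1.60 ± 0.25 with ICG, and Thbs2 by 0.75 ± 0.08 with PHA. Among 9 collagen receptors none was called with PHA or PHA+ICG (3 and 2 had an unadjusted limma p under 0.05), and 1 rose and 2 fell with ICG. Of 9 TGF-beta ligands, receptors and matrix regulators, 3 fell with PHA, 2 rose and 2 fell with ICG, and 1 fell with PHA+ICG. That 1 was Ccn2, a matrix-associated growth regulator, which also fell in all 3, by 1.04 ± 0.07 (PHA), by 0.33 ± 0.07 (ICG) and by 1.72 ± 0.30 (PHA+ICG).

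Markers of cell types moved beside the collagens. Dcn and Lum are in the fibril-associated list above and also among the fibroblast markers, so these lists overlap. Of 12 fibroblast markers that are not collagens, 9 fell under PHA, 10 under ICG and 2 under the combination, and none rose. Under the combination 8 had an unadjusted limma p under 0.05, as did 13.3% of all genes. The median log2 changes of the 12 markers were −0.68 (PHA), −1.04 (ICG) and −0.71 (PHA+ICG). Their mean log2 signal lay between 8.81 and 9.00 with PHA and between 8.40 and 8.85 with ICG, against 9.49 to 9.98 with DMSO. In the second set it lay between 10.11 and 10.48 with PHA+ICG, against 10.93 to 11.13 with DMSO. The treated arrays were below every DMSO array of their set each time, and Pdgfrb had 9.74, 8.81 and 8.94 with ICG, against 11.19, 11.42 and 11.41 with DMSO. The 11 leukocyte markers averaged 9.04 to 9.20 with PHA and 8.36 to 8.73 with ICG, against 9.24 to 9.65 with DMSO, and 2 and 6 of them fell. Of 9 luminal markers 3 rose and 1 fell with PHA, and 3 rose and 3 fell with ICG. Of 9 basal markers 4 fell with PHA and 3 with ICG. With PHA+ICG 0 luminal, 0 basal and 0 leukocyte markers were called (3, 2 and 3 had an unadjusted limma p under 0.05). None of the 6 pericyte markers was called in any of these comparisons, and 0 had an unadjusted p under 0.05, while 1 of 8 endothelial markers fell with PHA and 1 rose with ICG, and of 4 adipocyte markers 1 rose and 1 fell with ICG and 1 fell with PHA+ICG. The part of these cell types in the collagen results was not tested. The log2 difference between 3′ and 5′ probe sets of Actb, a sign of RNA length, was 0.541 ± 0.056 with PHA and 0.631 ± 0.070 with ICG, against 0.447 ± 0.124 with DMSO of the first set (SD, n = 3 each). In the second set it was 0.591 ± 0.161 with PHA+ICG and 0.590 ± 0.111 with DMSO (SD, n = 3 each). There the replicate 1 arrays had 0.776 with PHA+ICG and 0.715 with DMSO, against 0.489 to 0.553 on the other arrays of that set. The part of RNA length in the results was not tested either.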

How the data were processed

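Log2 values of 45101 probe sets on 15 arrays were used as deposited; per the submitters' processing notes RMA and MAS5 were used, with neither version nor role given, and whether both sets were normalized together is not given in the sources used here. The number of arrays limits the precision. Symbols came from the platform annotation: 34945 probe sets had 1 symbol, 932 had several and 9160 none, and 64 were controls; only those with 1 symbol entered, by the brightest probe set of each gene.

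Groups were compared with limma 3.58.1 (R 4.3.3) on 18193 genes, within the first set (9 arrays, 6 residual degrees of freedom) and within the second (6 arrays, 4). Comparisons across sets used 1 fit of 15 arrays with a weight per set (2.03 and 0.345). P-values were Benjamini-Hochberg adjusted over all genes of a comparison and called under 0.05. The fits were tested on simulated data. Separate fits were used because the second set spread more; a pooled spread is an alternative. Others were quantile normalization, centring, every probe set, leaving out genes below the median signal, trended robust variance, a replicate block and leaving out arrays. Leaving out both replicate 1 arrays of the second set was added after seeing the data.

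The members, classes, gene lists and the rule for named genes were chosen with earlier results of these data known. Per-array values were given for 8 fixed genes, the 5 called members with the largest change in each treatment comparison and up to 5 that rose, and other members were named with fold changes; of other lists, up to 4 called members and Serpinh1, P4ha1, P4ha2 and Lox. Col8a1, Col4a5 and Ptprc were given by array outside that rule, after their values were seen. Fkbp10, Adamts2, Adamts14, Loxl2, Itga11, Prlr and Plin1 had no match and were not analysed here.

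Pairing was checked by correlating deviations from group means. Same-numbered arrays of the second set correlated at 0.61, 0.36 and 0.28, all above 0.1, and were taken as pairs. Between arrays 2 and 3 the values were 0.24 and 0.35. The correlations thus set replicate 1 apart but do not show which of replicates 2 and 3 pair. In the first set they ran from −0.26 to 0.12 and were not pairs. Promoters are from RefSeq. Tables were made in Python 3.11.15 with numpy 2.4.6 and pandas 2.3.3, and figures with matplotlib 3.10.9.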

Additional observations from a re-analysis of the deposited data

How the results depend on the processing

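Shares in brackets are those of all genes called in the same fit. With the spread pooled over both sets, 3 members were called for PHA (1%), 14 for ICG (6.9%) and 9 for PHA against ICG (8.04%). The ICG calls lost were those of Col4a1, Col4a2, Col11a2, Col17a1, Col18a1 and Col23a1. PHA+ICG had 12 calls (13.3%), 11 lower, and Col14a1 higher. The combined effect minus the ICG effect had 4 (0.879%) and the combined effect minus the PHA effect 4 (4.73%). The block on replicate number gave 11 for PHA+ICG (7.93%), 2 for the difference from ICG (0.473%) and 4 for the difference from PHA (2.84%). In the first set, where the numbers were not taken as pairs, the block gave 5 for PHA (6.61%), 19 for ICG (22.8%) and 13 for PHA against ICG (23.5%). Leaving out both replicate 1 arrays of the second set gave 8 for PHA+ICG (4.87%) and 4 for the difference from PHA (3.96%). Leaving out genes below the median signal gave 11 for DMSO of the second set against that of the first (34.1%) and 0 for the differences from PHA (3.64%) and ICG (0.231%), where Col11a1 is then not tested. The same setting gave 6 for PHA (23.7%), 17 for ICG (51.1%), 15 for PHA against ICG (53.8%) and 3 for PHA+ICG (3.12%). Quantile normalization, median centring and every probe set each gave 2 for the difference from PHA (4.11%, 3.02% and 2.16%). Leaving out 1 array at a time gave 4 to 8 for PHA (5.52% to 9.29%) and 16 to 20 for ICG (20.3% to 26.1%). It gave 12 to 17 for PHA against ICG (21.6% to 24.2%) and 1 to 5 for PHA+ICG (0.308% to 2.14%). For the differences from PHA and ICG it gave 1 to 3 (0.819% to 3.95%) and 0 to 4 (0.0055% to 0.792%). The DMSO sets gave 12 to 20 (13.4% to 23%). Signs reversed only for uncalled changes near 0. Without 1 array Col4a1 with PHA ran from −0.0937 (without DMSO replicate 1) to 0.071 (without DMSO replicate 3), and it was −0.0029 without PHA replicate 2. Col4a2 with PHA was 0.0011 under quantile normalization and ran from −0.133 (without DMSO replicate 1) to 0.0272 (without DMSO replicate 2), and with PHA+ICG from −0.584 (without PHA+ICG replicate 1) to 0.0815 (without PHA+ICG replicate 2). Col18a1 with PHA+ICG ran from −0.0115 (without PHA+ICG replicate 1) to 0.363 (without DMSO replicate 1). Under quantile normalization Col11a1 with PHA+ICG had an adjusted p of 0.0539, and 0.102 with trended robust variance. The cause was not tested in these cases. With 3 arrays a group, changes below 1 on the log2 scale were mostly out of reach of the test in the second set.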
